A study of Citrullus lanatus with 12 samples.

Results

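A set of 59 watermelon genes, out of 23440 in the deposited table, had many reads in young anthers and far fewer once the pollen grains had 2 nuclei. They were chosen on stage means of the deposited log2 values. The higher of the tetrad and mononuclear means had to be at least 8, the lower of these means had to lie at least 2 above both later means, and the tetrad and mononuclear means had to be under 1.5 apart. The choice rests on the values themselves, so the contrasts between early and late stages are described here and not tested.

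Messenger RNA was sequenced from anthers of watermelon (Citrullus lanatus) at 4 stages: tetrad, mononuclear, dikaryophase and mature. There were 3 libraries per stage and 12 in all. The plants were greenhouse-grown progeny of the variety Xinteda Zhengkang 9, with no treatment or allele named. Each anther was staged under the microscope on a part of its material and RNA was taken from the rest. The labels give the tissue as flower, and do not say whether the 3 libraries of a stage came from separate plants, so p-values cover the spread of these samples alone, which may be technical. Libraries held 55347640 to 65554998 reads assigned to genes.

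In flowering plants the products of meiosis are first held together as a tetrad inside a callose wall. After their release each microspore has a single nucleus and builds its wall, fed by the tapetum, the innermost layer of the anther. A mitosis then gives a vegetative and a generative cell, and the tapetum breaks down before the pollen matures. This is background: the gene IDs are not paired with names here, so the role of each gene is not given and the anther and tapetum markers were not checked. In whole anthers, fewer cells of a type and less RNA per cell cannot be told apart.

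The 59 genes took a similar mean share of the reads at both early stages and little after them, a course that their choice favours. Their share of all reads was 3.90% ± 0.992 in tetrad libraries, 3.85% ± 1.16 in mononuclear ones, 0.244% ± 0.173 in dikaryophase ones and 0.0358% ± 0.00200 in mature ones (SD, n = 3 each). Single early libraries ran from 3.05% in mononuclear replicate 1 to 5.18% in mononuclear replicate 2. The dikaryophase mean rests partly on replicate 1, and is 0.151% without it. Relative to its mean over the 6 early libraries, the median gene kept 7.68% of its normalised reads at the dikaryophase and 1.72% at maturity. Normalised reads are the reads of a gene divided by a factor for each library. The fall was seldom complete by the dikaryophase: 18 genes kept over 10% there and 7 kept under 1%. At maturity 8 genes kept over 10% and 24 under 1%. In all 59 genes the 6 later libraries lay below the 6 early ones, which held for 6.02% of the 17484 genes tested; the choice of the genes used this contrast.

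**Figure D1:**
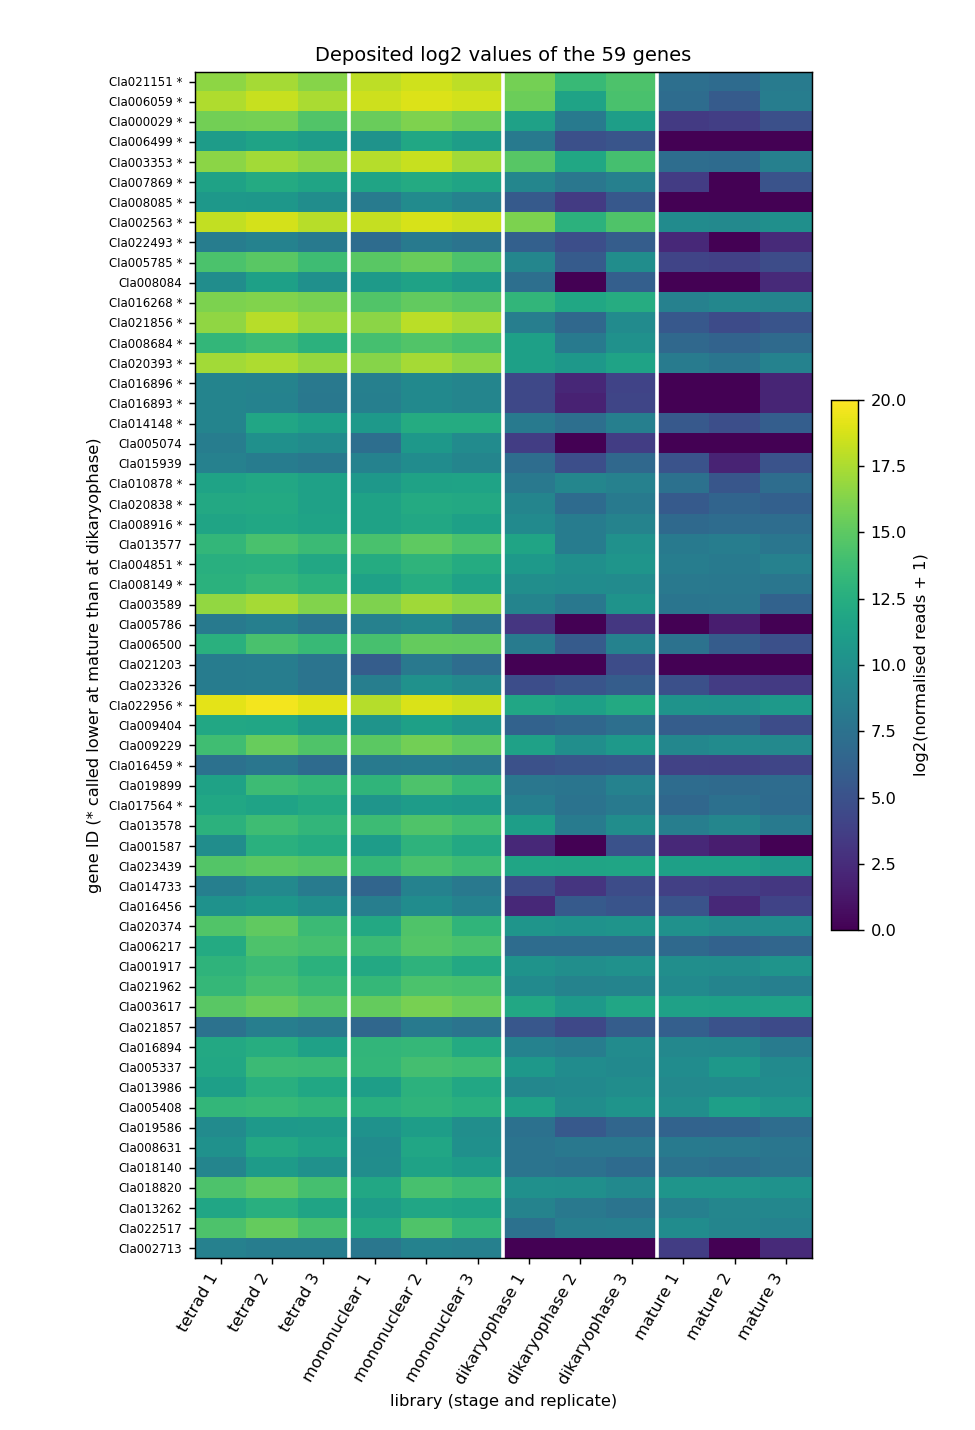
Deposited log2(normalised reads + 1) of the 59 genes (rows) in the 12 libraries (columns, grouped by stage), ordered by the mature minus dikaryophase difference with the largest fall at the top. The tetrad and mononuclear columns are brighter than the later ones in each row, dikaryophase replicate 2 is darker than its neighbours in most rows, and asterisks mark the 25 genes called lower at maturity than at the dikaryophase.

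The 59 genes moved together between libraries of the same stage at the tetrad, mononuclear and dikaryophase stages. Mononuclear replicate 2 had the highest of the mononuclear values for 58 of the 59 genes (98.3%), against 30.9% of all tested genes. The exception was Cla010878, at 1657, 2916 and 3066 normalised reads in mononuclear replicates 1, 2 and 3. Tetrad replicate 2 was highest of its stage for 51 genes (86.4%), against 36.1% of all tested genes. Mononuclear replicate 1 was lowest for 48 (81.4%), against 34.7%. At the dikaryophase, replicate 2 was lowest for 43 genes (72.9%), against 33.5% of all tested genes. At maturity the shares of highest values were close to the background. Mature replicates 1, 2 and 3 were highest for 32.2%, 20.3% and 40.7% of them, against 34.9%, 24.5% and 40.3% of all tested genes. The shares of lowest values were further from it. Mature replicates 1, 2 and 3 were lowest for 16.9%, 40.7% and 28.8% of the genes, against 29.2%, 28.7% and 41.5% of all tested genes.

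The size of these shifts was moderate in young anthers and larger at the dikaryophase. The median gene lay 0.45 (log2) above its stage mean in tetrad replicate 2 and 0.50 above it in mononuclear replicate 2, and 0.76 below it in dikaryophase replicate 2. Over all tested genes the corresponding medians were within 0.01 of 0. The share of reads shows the same order: 0.430%, 0.0895% and 0.212% in dikaryophase replicates 1, 2 and 3, but 0.0335%, 0.0368% and 0.0371% in mature replicates 1, 2 and 3. Whether the staging of these libraries has a part in it was not tested.

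**Figure D2:**
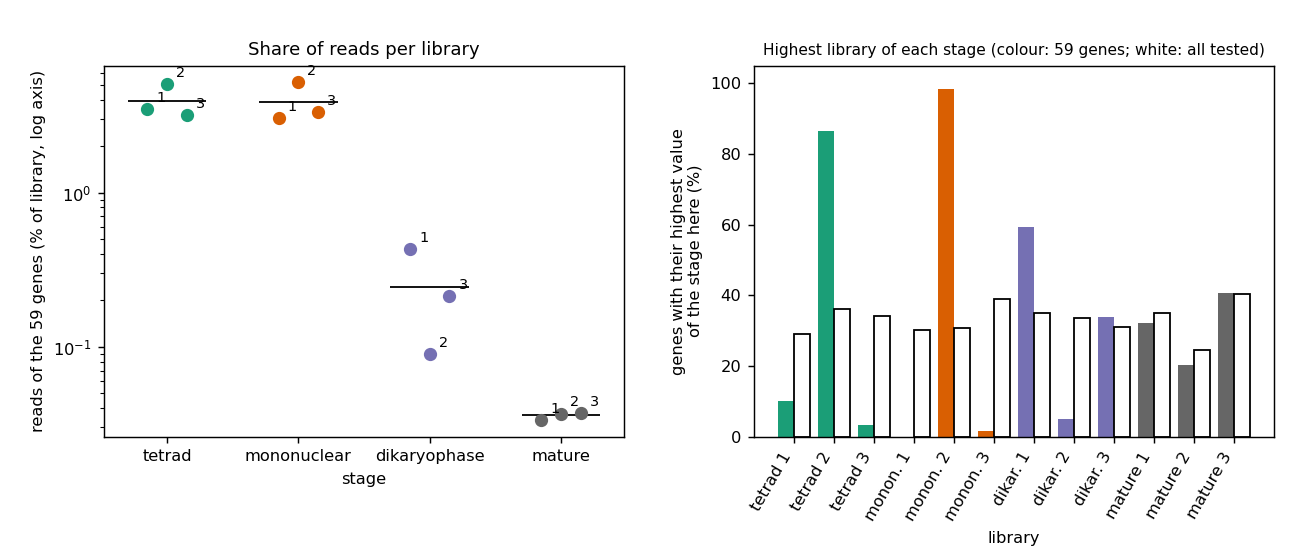
Left, the share of reads held by the 59 genes in each library (points, numbered by replicate; lines are stage means; log axis in percent). Right, the percentage of genes whose highest value of a stage fell in each library, for the 59 genes (coloured) and for all tested genes (white): mononuclear replicate 2 stands at 98.3% against 30.9%, and tetrad replicate 2 at 86.4% against 36.1%.

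The 10 genes with the most early reads supplied most of the total, 84.3% of those of the 59 genes in the early libraries, and Cla022956 alone supplied 20.8%. The sources used here give no gene lengths, so read numbers are not compared as levels between genes. Cla022956 had 601842, 808530 and 575085 normalised reads in tetrad replicates 1, 2 and 3 and 218591, 484699 and 337893 in the mononuclear ones. It had 3742, 2586 and 4446 in dikaryophase and 1264, 1195 and 1739 in mature replicates 1, 2 and 3. It had already given up most of its reads at the dikaryophase, and its mature mean was 1.34 below its dikaryophase mean on the log2 scale.

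Another 4 of these genes kept 7.03% to 14.9% of their early normalised reads at the dikaryophase and under 1% at maturity. Cla006059 had 204480, 333827 and 183243 normalised reads in tetrad replicates 1, 2 and 3 and 356773, 518044 and 410302 in the mononuclear ones. It had 47721, 3103 and 19724 in dikaryophase and 135, 53.1 and 350.4 in mature replicates 1, 2 and 3. Cla021151 had 97676, 161216 and 83164 in tetrad replicates 1, 2 and 3 and 258971, 379411 and 259333 in the mononuclear ones. It had 59104, 11178 and 22339 in dikaryophase and 154, 127 and 318 in mature replicates 1, 2 and 3. In both genes no stage overlapped another, and the mononuclear libraries held the most. Cla003353 had 3952 to 29332 normalised reads at the dikaryophase and 129 to 410.2 at maturity. Cla002563 had 7204 to 69287 at the dikaryophase and 681 to 1005 at maturity. In all of these, dikaryophase replicate 1 held the most and replicate 2 the fewest reads of that stage.

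Of the other 5, Cla021856, Cla003589 and Cla020393 kept 0.267%, 0.609% and 1.84% of their early normalised reads at the dikaryophase. Cla021856 had 105125 to 241282 normalised reads in its tetrad libraries, 96193 to 245294 in its mononuclear libraries and 378, 106 and 821 in dikaryophase replicates 1, 2 and 3. Its mature libraries held 22.6 to 44.9 normalised reads. Cla003589 had 77571 to 161054 normalised reads in tetrad libraries, 70025 to 146271 in mononuclear ones, 251 to 1222 in dikaryophase ones and 76.3 to 231 in mature ones. Cla020393 had 118996 to 195092 in tetrad libraries, 84091 to 160852 in mononuclear ones, 1616 to 3184 in dikaryophase ones and 217 to 458 in mature ones. Cla000029 and Cla016268 kept 3.63% and 12.2% of their early normalised reads at the dikaryophase, and 0.034% and 1.06% at maturity.

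**Figure D3:**
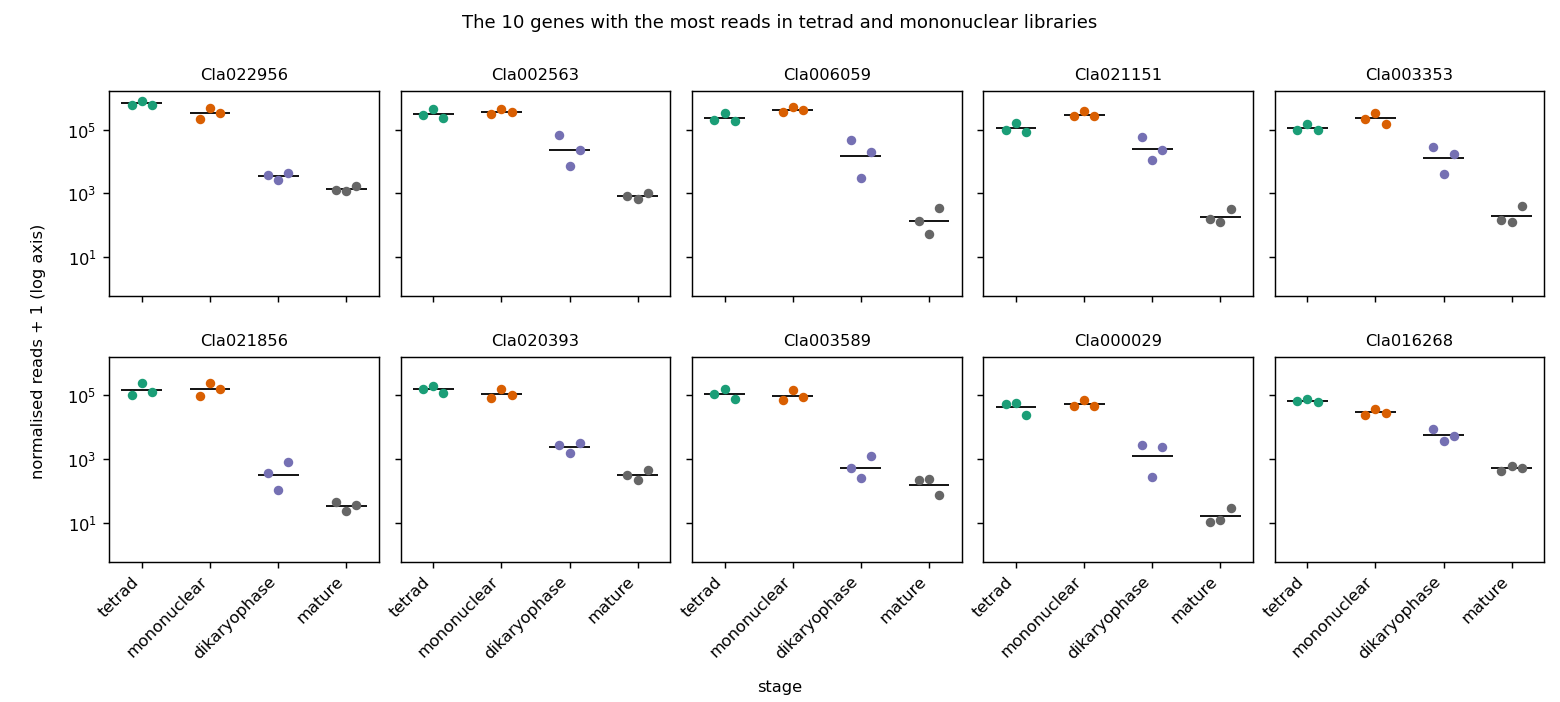
Normalised reads + 1 (log axis) of the 10 genes with the most reads in the tetrad and mononuclear libraries, by stage; points are libraries in replicate order and lines are geometric means of 3. Cla022956, Cla021856 and Cla003589 are already far down at the dikaryophase, where Cla002563, Cla006059, Cla021151 and Cla003353 still hold 3103 to 69287 normalised reads.

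The drop, the lower early mean less the higher late mean on the log2 scale, ran from 2.01 to 9.17 with a median of 3.65. The largest was that of Cla001587, which had 905, 6465 and 5124 normalised reads in tetrad replicates 1, 2 and 3 and 2131, 7873 and 4293 in the mononuclear ones. It had 3.87, 0 and 31.6 in dikaryophase and 3.90, 1.97 and 0 in mature replicates 1, 2 and 3. The drops of Cla021856 and Cla003589 were 8.84 and 7.47, and those of Cla005074 and Cla022956 were 6.74 and 6.56. At the other end, Cla008149 (2.01), Cla023439 (2.02) and Cla022493 (2.04) were just inside the limit of 2, and Cla021133 (1.99), Cla016012 (1.98) and Cla004852 (1.97) were just outside it. For the limit of 8 on the early level, Cla021857 (8.07), Cla021203 (8.17) and Cla016459 (8.20) were just inside, and Cla014703 (7.93), Cla018545 (7.84) and Cla007379 (7.83) just outside.

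A few genes had no read left. Cla005074, Cla006499, Cla008085 and Cla021203 had none in the 3 mature libraries, and Cla002713 had none in the 3 dikaryophase libraries. With 3 reads over the stage as a floor, Cla006499 was at least 2235-fold lower in mature anthers than at the lower of its early stages, Cla005074 at least 738-fold, Cla008085 at least 489-fold and Cla021203 at least 143-fold. Cla002713 was at least 362-fold lower at the dikaryophase. It had 248 to 474 normalised reads in the early libraries, and 11.7, 0 and 4.12 in mature replicates 1, 2 and 3. Such bounds cover counting error only.

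Between the early stages the 59 genes leaned either way, within the 1.5 that the choice allows. With the deposited values 32 were higher at the mononuclear stage and 27 at the tetrad stage, but with library size as the only scaling it was 27 and 32. The median difference, mononuclear minus tetrad, was 0.07 (log2), against -0.01 over all tested genes. The 3 mononuclear libraries all lay above the tetrad ones in 7 genes, against 18.9% of all tested genes, and all below them in 8, against 19.0%. Since the choice bounds this contrast, nothing is read from these counts.

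The strongest lean to the mononuclear stage was in Cla006500, with 18922, 39842 and 36721 normalised reads in mononuclear replicates 1, 2 and 3 and 6466, 19347 and 11216 in tetrad replicates 1, 2 and 3. Its highest tetrad library just passed its lowest mononuclear one. Cla021151 and Cla023326 came next, 1.43 and 1.18 higher at the mononuclear stage. The strongest lean to the tetrad stage was in Cla008085, with 321, 816 and 458 normalised reads in mononuclear replicates 1, 2 and 3 and 1654, 1553 and 910 in tetrad replicates 1, 2 and 3, without overlap. In Cla022517 and Cla018820 the difference, mononuclear minus tetrad, was -1.39 and -1.23, and in both mononuclear replicate 2 held several times the reads of mononuclear replicate 1 (22985 against 4248 in Cla022517). Cla006500, Cla021151 and Cla008085 were the genes just inside the limit of 1.5, each at 1.43. Just outside it were Cla006202, Cla005136 and Cla004004, the last at 1.52.

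Some genes varied widely within an early stage. Between tetrad libraries the widest ranges were those of Cla001587 (2.84 on the log2 scale), Cla014148 (2.78) and Cla019899 (2.24), with tetrad replicate 1 lowest and replicate 2 highest in each. Between mononuclear libraries they were those of Cla005074 (3.49), Cla022517 (2.44) and Cla020374 (2.38), with replicate 1 lowest and replicate 2 highest in each. Cla005074 had 146, 1642 and 790 normalised reads in mononuclear replicates 1, 2 and 3. The median SD of the 59 genes between libraries of a stage was 0.47 in tetrad libraries, 0.53 in mononuclear ones, 0.70 in dikaryophase ones and 0.44 in mature ones, against 0.12, 0.21, 0.19 and 0.20 over all tested genes.

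The comparison of mature with dikaryophase anthers asks whether the genes kept falling after the drop that chose them. The choice sets a ceiling on both late means but does not use their difference. All 59 genes passed the filter on low values, which the limit on their early level favours. A call by limma on the deposited log2 values needed a Benjamini-Hochberg adjusted p under 0.05 over 17484 genes. It also needed a log2 fold change of at least 1. Of the 59 genes, 25 fell and none rose at maturity. That is 42.4% lower, where 3.01% of all tested genes were called lower and 1.93% higher. At an unadjusted p under 0.05, 35 genes were lower and 2 higher, where 13.0% of all tested genes were lower and 13.5% higher. The mean was lower at maturity in 49 of the 59 genes (83.1%), against 48.6% of all tested genes. The median log2 fold change was -1.55 over the 59 genes and 0.01 over all tested genes. With limma-voom on reads recovered from the values the calls were 13 lower and 0 higher, where 2.77% of all tested genes were called lower and 3.13% higher. Without dikaryophase replicate 3 the calls were 17 lower and 0 higher, against 1.97% and 0.995% of all tested genes. Some of the 59 had few reads at both late stages: 17 had a mean under 1 CPM (55.3 to 65.6 reads in a library) over the 6 dikaryophase and mature libraries, and 6 of the 25 falls were among them (Cla006499, Cla008085, Cla016459, Cla016893, Cla016896 and Cla022493). Among genes with a late mean of at least 1 CPM, a filter chosen after the data were seen, 19 of 42 were called lower and 0 higher, where 2.81% of the 16962 genes tested were called lower and 1.96% higher.

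The libraries of the stages were often fully apart. All 3 mature libraries lay below all 3 dikaryophase libraries in 31 genes (52.5%), against 13.8% of all tested genes. They lay above them in 2 genes, Cla018820 and Cla022517, against 15.5% of all tested genes, and overlapped in 26. A neighbouring group of 102 genes met the limits on level and drop but differed by 1.5 or more between tetrad and mononuclear anthers, 99 of them being higher at the tetrad stage. In that group 10 genes (9.80%) were called lower at maturity and 1 higher, with a median log2 fold change of -0.43. The difference between these groups of genes was not tested.

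Of the 10 genes with the most early reads, 9 were called lower at maturity, and of the other 49, 16 were, against 3.01% of all tested genes. The 17 genes with a late mean under 1 CPM were all among the 49, and the difference between these groups was not tested. Of the 5 steepest falls, 4 were among those 10, and the exception was Cla006499. Cla021151 led, with a log2 fold change of -7.05 ± 0.52 (SE, n = 3 per stage, limma adjusted p = 3.94e-05), and 127 to 318 normalised reads at maturity against 11178 to 59104 at the dikaryophase. Cla006059 fell by 6.70 ± 0.85 (limma adjusted p = 0.000669), with all 3 mature libraries below all 3 dikaryophase ones. The log2 fold changes of Cla003353 and Cla002563 were -6.01 ± 0.65 and -4.77 ± 0.60, both without overlap.

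Cla000029 had 9.76, 11.8 and 28.9 normalised reads in mature replicates 1, 2 and 3, against 2811, 284 and 2355 in dikaryophase replicates 1, 2 and 3, a log2 fold change of -6.27 ± 0.74 (limma adjusted p = 0.000419). Its call was lost with limma-voom, with an adjusted p of 0.135. Cla006499 had no mature read, against 281, 28.0 and 38.2 normalised reads in dikaryophase replicates 1, 2 and 3 (limma adjusted p = 0.000400, and 0.0833 with limma-voom). With 3 reads over the mature stage as a floor, its mean was at least 116-fold lower at maturity. The limma estimate, which includes the pseudocount, was 68.5-fold. Cla008085 was likewise without mature reads, at least 35.5-fold lower with that floor and 29.8-fold by limma (limma adjusted p = 0.000386). Both bounds cover counting error only and not the spread between libraries.

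Among the 10 with the most reads, Cla016268 had 431, 624 and 522 normalised reads in mature replicates 1, 2 and 3, against 8980, 3822 and 5214 in dikaryophase replicates 1, 2 and 3, a log2 fold change of -3.44 ± 0.27 (limma adjusted p = 5.39e-05). Those of Cla020393, Cla021856 and Cla022956 were -2.92 ± 0.33, -3.23 ± 0.62 and -1.34 ± 0.28 (limma adjusted p = 0.000386, 0.00712 and 0.0115). The call of Cla021856 was lost with limma-voom (adjusted p = 0.153), and that of Cla022956 without dikaryophase replicate 3 (adjusted p = 0.0603). Cla003589 was the only one of these 10 not called, at -1.78 ± 0.56 (limma adjusted p = 0.0637), although its mature libraries lay below its dikaryophase ones.

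The remaining falls were those of Cla007869, Cla022493, Cla005785, Cla008684, Cla016896, Cla016893, Cla014148, Cla010878, Cla020838, Cla008916, Cla004851, Cla008149, Cla016459 and Cla017564, with log2 fold changes from -5.73 to -1.17. Cla007869, the steepest of these, had 10.7, 0 and 33.0 normalised reads in mature replicates 1, 2 and 3, against 564, 244 and 428 in dikaryophase replicates 1, 2 and 3. Cla008916 had 112, 131 and 143 in mature replicates 1, 2 and 3, against 775, 336 and 499 in dikaryophase replicates 1, 2 and 3. The groups were apart in both. Over the 26 alternatives, 9 of the 25 genes were called lower each time they were tested. An alternative that required a log2 fold change of at least 2 kept 19, since the others had smaller changes as reported.

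**Figure D4:**
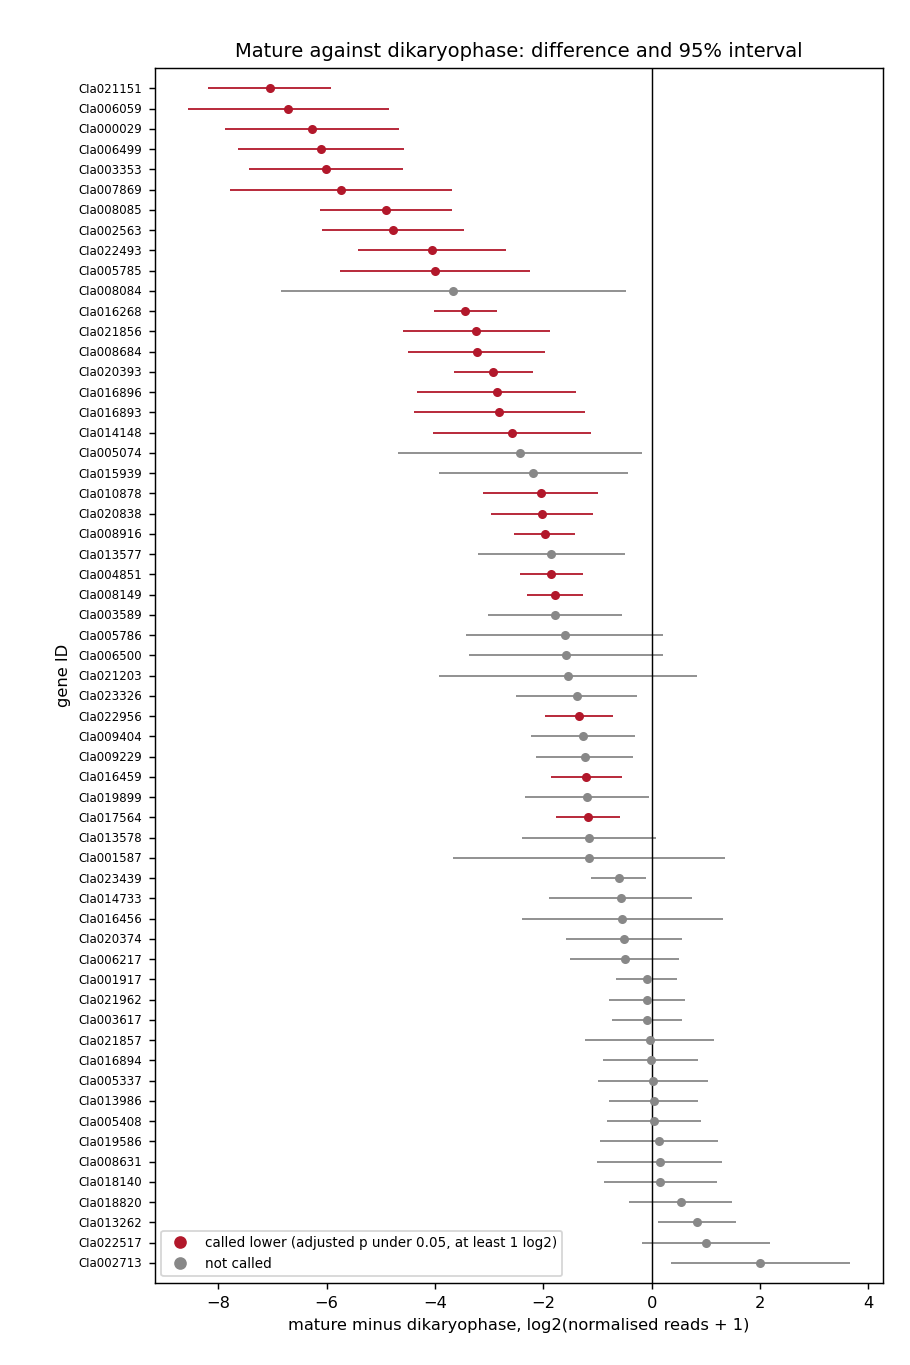
Mature minus dikaryophase difference of mean log2(normalised reads + 1) for each of the 59 genes, with 95% intervals from the limma fit. The 25 genes called lower (red) run from -7.05 in Cla021151 to -1.17 in Cla017564, and 34 genes (grey) were not called.

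The 34 genes that were not called were of different kinds. In 6 of them the 95% interval of the difference lay within 1 on the log2 scale of 0, a 2-fold change. These were Cla001917, Cla021962, Cla003617, Cla016894, Cla013986 and Cla005408. The interval rests on a moderated variance over all 12 libraries, the early ones included. In Cla005408 the SD was 0.84 in dikaryophase and 0.72 in mature libraries, against 0.19 in tetrad and 0.22 in mononuclear ones. In Cla001917 and Cla013986 both late SDs were below both early ones. Whether a larger change is outside an interval from the late libraries alone was not tested. Cla003617 had 2723, 2599 and 2850 normalised reads in mature replicates 1, 2 and 3, against 4031, 1684 and 3565 in dikaryophase replicates 1, 2 and 3. Cla001917 had 929, 882 and 1279 in mature replicates 1, 2 and 3, against 1220, 946 and 1102 in dikaryophase replicates 1, 2 and 3. The mature values lay within the dikaryophase range in Cla003617 and on either side of it in Cla001917.

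In 16 of the 34 the difference was at least 1 on the log2 scale, and no call was made. Cla008084 had 0, 0 and 4.12 normalised reads in mature replicates 1, 2 and 3, against 155, 0 and 65.0 in dikaryophase replicates 1, 2 and 3, a log2 fold change of -3.66 ± 1.46 (limma adjusted p = 0.134). Without dikaryophase replicate 2, the library with no read, its adjusted p was 0.00127 and 32 of the 59 genes were called lower and 0 higher, against 2.88% and 1.87% of all tested genes. Cla013577 had 309, 358 and 235 normalised reads in mature replicates 1, 2 and 3, against 3273, 332 and 1124 in dikaryophase replicates 1, 2 and 3 (limma adjusted p = 0.0779).

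The highest values at maturity relative to the dikaryophase were those of Cla002713, Cla022517 and Cla013262, and none of them was called. Cla022517 had 855, 544 and 455 normalised reads in mature replicates 1, 2 and 3, against 173, 379 and 393 in dikaryophase replicates 1, 2 and 3, without overlap (log2 fold change 1.01 ± 0.54, limma adjusted p = 0.264). Cla002713, with no dikaryophase read, was at least 5.39-fold higher at maturity over 16 reads, a bound that covers counting error only. It was called higher without mature replicate 2. Cla013262 differed by 0.84 ± 0.33 (limma adjusted p = 0.132), and was called higher without dikaryophase replicate 1. In both cases this was 1 gene of the 59. Of the 17484 tested genes, 222 were called higher without mature replicate 2 and 433 without dikaryophase replicate 1.

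Several of the 59 carry neighbouring numbers. There were 6 runs of IDs at most 2 apart, which held 13 of the genes, in 5 pairs and 1 run of 3. Their genome positions and sequences were not used here, and where copies are nearly identical or genes overlap, the source of a read is uncertain. Of the 163 tested genes outside the set whose number is within 2 of a member, 9 (5.52%) had a drop of at least 1, against 2.39% of all tested genes. The latter share includes the 59 genes themselves. The largest of those drops was in Cla006060 (7.77), numbered next to Cla006059, with log2 means of 11.65 in tetrad libraries, 9.75 in mononuclear ones, 1.97 in dikaryophase ones and 1.54 in mature ones.

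Genes numbered side by side did not always share a course. Cla013577 and Cla013578 ran close together, with log2 means of 13.71 and 13.28 in tetrad libraries, 14.56 and 14.05 in mononuclear ones, 10.06 and 9.80 in dikaryophase ones and 8.21 and 8.64 in mature ones. Cla016893 and Cla016896 had nearly the same reads in every library, 2834 and 2899 in all, and never more than 26 apart in a library. They may share reads and are uncertain as separate genes, and counted as 1 they leave 58 genes and 24 falls at maturity. Cla016894, numbered between them, differed by -0.02 ± 0.40 between the late stages, while the log2 fold changes of Cla016893 and Cla016896 were -2.81 ± 0.72 and -2.86 ± 0.67 (limma adjusted p = 0.0282 and 0.0189). Both calls were lost with limma-voom (adjusted p = 0.175 and 0.149), and without dikaryophase replicate 1 or 3 or mature replicate 1 or 2. Cla021856 and Cla021857 both had their drop at the dikaryophase, of 8.84 and 2.27.

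**Figure D5:**
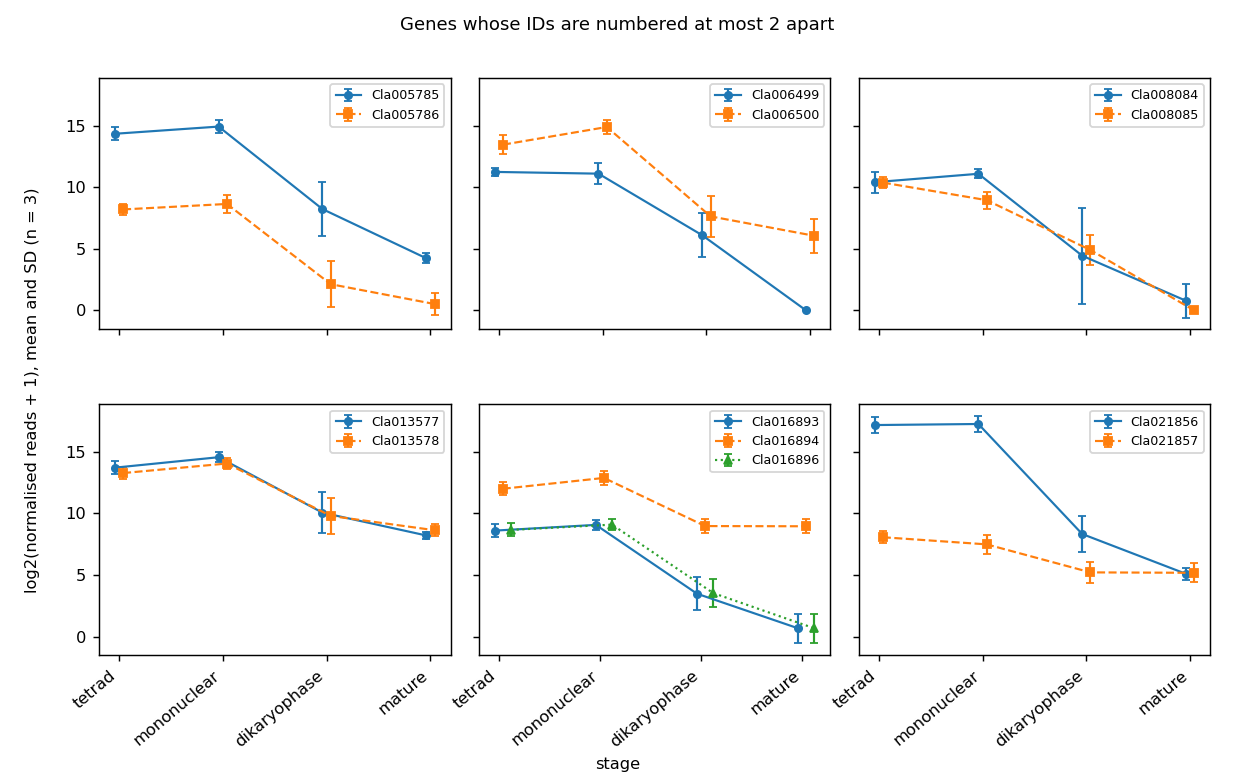
Mean log2(normalised reads + 1) by stage, with SD (n = 3), for the 6 runs of genes whose IDs are at most 2 apart. Cla013577 and Cla013578 lie close together, as do Cla016893 and Cla016896, while Cla021856 starts at 17.17 and Cla021857 at 8.07 in tetrad libraries.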

How the data were processed

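The deposited table gives log2 values for 23440 genes in 12 libraries, with 3 per stage. The sources used here do not give the aligner, counting tool, build, annotation or strand setting. The authors' log2 scale was read from the values: after undoing the log2 and taking off the pseudocount of 1, 100% of values fell on multiples of 1 step per library (tolerance 0.01 reads), so reads, CPM and a factor per library (0.887 to 1.07) could be recovered. A level of 1 CPM stood for 55.3 to 65.6 reads.

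The 17484 genes that reached 1 CPM in 3 or more libraries were fitted with limma (3.58.1, R 4.3.3): a mean per stage over 12 libraries, 8 residual degrees of freedom, variances moderated with a trend, and Benjamini-Hochberg adjustment over all of them. The pseudocount understates changes of genes with few reads.

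Genes were named by rule: most early reads, largest drop, closest to each limit, largest called changes, largest lean, widest range, and no reads at a stage. Cla010878, Cla018820, Cla007869, Cla008916, Cla008084, Cla013262, Cla013577, the genes not called and the runs of IDs were singled out after their values were seen. The members and lists were chosen with earlier results of these data known. Alternatives were other scalings, filters, thresholds and fits, and each library left out in turn. Lists by gene product were not used, since the IDs are not paired with names.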

Additional observations from a re-analysis of the deposited data

How the results depend on the processing

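Under the alternatives the number of genes that met the rule stayed within 1.5 times of 59 except for the size of the drop: 166 genes with a drop of at least 1, and 37 with a drop of at least 3. With each library left out in turn it ran from 47 (without mononuclear replicate 2, 45 of them among the 59) to 73 (without mononuclear replicate 1). The 25 falls at maturity became 13 with limma-voom on recovered reads, all among the 25, and ran from 17 (without dikaryophase replicate 3) to 32 (without dikaryophase replicate 2) with libraries left out. They became 18, all among the 25, in a fit to the dikaryophase and mature libraries alone. The limma adjusted p in that fit was 0.0174 for Cla006059 and 0.0120 for Cla000029, in place of 0.000669 and 0.000419. For Cla014148 it was 0.0224 in place of 0.0302. The count of rises, 0, ran from 0 to 1. With the replicate number as a block the calls were the same 25 genes. The labels do not say that a number pairs samples, and same-numbered mature and dikaryophase libraries correlated at -0.06, 0.10 and 0.36 in their deviations from stage means, so that of the mature libraries only replicate 3 correlated best with its own number. Between dikaryophase and mononuclear libraries, which the test does not compare, all 3 correlations were over 0.1 (0.11, 0.15 and 0.17). The median mature minus dikaryophase difference ran from -1.89 to -1.15 with libraries left out. Without dikaryophase replicate 3 the difference of Cla001587 was 0.15 in place of -1.15 (from -2.37 to 0.15 over the libraries left out), and that of Cla021203 was 0 in place of -1.55 (from -2.32 to 0), since its dikaryophase reads were all in that library. Neither gene was called. The cause of the other changes was not tested. At this depth, 10 of the 59 genes had under 10 reads over the 3 mature libraries, which limits their fold changes.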
